A study of Mus musculus with 12 samples.

Results

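The 41 genes described here are expressed in endothelial cells, the cells that line blood vessels. They were chosen by symbol as endothelial genes, with earlier results of these data known. All 41 were among the 12081 genes listed. Of them, 11 are known for the endothelium of the liver sinusoids, of which 7 (Clec4g, Stab2, Lyve1, Dnase1l3, Gpr182, Oit3 and Fcgr2b) were set beside 29 general endothelial genes. Vwf, which codes for von Willebrand factor, was kept apart as a class of its own. Their RNA was measured in cultures and isolates labelled as primary mouse hepatic stellate cells, the pericytes of the liver sinusoid, which were obtained with a density gradient. The study asked whether hexokinase 2 (Hk2), a glycolytic enzyme, and lactate, the product of glycolysis, set the gene expression of activated stellate cells.

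Each of 4 groups had 3 libraries. All cells had the genotype Hk2 fl/fl, in which Cre recombinase can remove Hk2. QS cells were freshly isolated and untreated, and stand for the quiescent state. ACT cells were transduced with an adenovirus expressing eGFP, KO cells with one expressing Cre fused to eGFP, and both were then kept for 6 days in culture. LAC cells were KO cells that also received 10 mM lactate for 24 h. Whether these 24 h lay within the 6 days of culture is not stated in the labels. The promoter of the viral genes, the age of the mice, and whether libraries came from separate animals or cultures are not given in the sources used here, so p-values measure the spread between libraries, which may be technical.

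Sinusoidal endothelial cells have open pores and no continuous basement membrane, and they clear waste molecules from blood through scavenger receptors such as those of the stabilin family. General endothelial genes code for junction proteins, receptors and transcription factors shared by most blood vessels. Loss of sinusoidal genes and gain of capillary genes, called capillarization, is a known feature of sinusoidal endothelial cells in fibrosis and in culture.

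Because most of the genes moved together, the bases before the transcription start were searched for short motifs on both strands. RefSeq gave a promoter for 20 of the 41 genes. In the 250 bases before the start, CAGGAA, a core bound by ETS factors such as Erg, was found in 11 of the 20 (55%) and in 28.3% of all 27025 genes with a promoter. The ETS core CCGGAA was found in 1 (5.0%) against 13.6% of all genes. For the SOX core AACAAT the count was 3 (15%, all genes 10.9%), for the GATA core AGATAA 2 (10%, all genes 11.4%) and for TGCTGA, part of the site of MAF factors, 6 (30%, all genes 18.02%). A match describes the letters and is not evidence of binding. The stretches below are shown for the sinusoidal gene that fell furthest in ACT (Clec4g), a scavenger receptor (Stab2) and a general gene with a deep fall (Clec14a). Emcn is shown as a gene that was lower in ACT than in QS like most, but higher in KO than in QS unlike most. They are from GRCm38.p6, upstream of the gene as annotated in GENCODE M21, with motif letters in capitals. Clec4g is chr8:3720652-3720901, Stab2 chr10:87008026-87008192 and Clec14a chr12:58269291-58269508, all on the minus strand, and Emcn is chr3:137340828-137341066 on the plus strand.
Clec4g: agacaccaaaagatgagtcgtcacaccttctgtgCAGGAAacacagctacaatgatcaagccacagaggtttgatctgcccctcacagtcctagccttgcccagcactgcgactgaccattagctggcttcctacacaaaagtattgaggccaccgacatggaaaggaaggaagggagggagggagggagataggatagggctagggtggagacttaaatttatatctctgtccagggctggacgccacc
Stab2: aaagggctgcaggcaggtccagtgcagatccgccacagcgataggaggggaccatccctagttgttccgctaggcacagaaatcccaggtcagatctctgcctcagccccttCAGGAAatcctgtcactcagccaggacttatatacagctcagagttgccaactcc
Clec14a: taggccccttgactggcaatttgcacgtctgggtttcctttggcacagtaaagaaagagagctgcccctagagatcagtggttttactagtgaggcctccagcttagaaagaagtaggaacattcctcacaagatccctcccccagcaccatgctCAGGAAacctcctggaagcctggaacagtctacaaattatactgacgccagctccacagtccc
Emcn: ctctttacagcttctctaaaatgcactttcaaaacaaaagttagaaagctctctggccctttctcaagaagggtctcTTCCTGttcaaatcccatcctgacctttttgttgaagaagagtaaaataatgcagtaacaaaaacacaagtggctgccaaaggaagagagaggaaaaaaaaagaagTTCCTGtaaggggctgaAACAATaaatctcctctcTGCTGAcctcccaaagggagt
The Clec4g, Stab2 and Clec14a stretches hold CAGGAA as written, and the Emcn stretch holds 4 matches, of which 2 are CAGGAA on the other strand. Each of these genes was lower in ACT than in QS, and whether the motif bears on their levels was not tested.

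Levels are given as CPM, read counts scaled to the library. The estimated reads behind the listed genes ran from 4.35 M (megareads) to 14.00 M per library, and 3 reads corresponded to 0.212 to 0.720 CPM. Hk2 itself averaged 71.2 CPM in QS, 181 in ACT, 12.1 in KO, with 19.3 in LAC. Stellate genes were present in all 4 groups. Lrat, the retinol-esterifying enzyme of quiescent stellate cells, averaged 352 CPM in QS, 3.09 in ACT, 17.4 in KO, with 14.0 in LAC. The Col1a1 means were 28.6, 5341, 1498 and 2690.5 CPM in the same order. By limma at adjusted p under 0.05, 7 of 18 stellate genes were higher and 11 lower in ACT against QS (all genes 38% and 35.5%). In KO against ACT 10 were higher and 7 lower (all genes 36% and 26.3%). In LAC against KO 9 were higher and 4 lower (all genes 20% and 21%). Markers of other cells were present too. The summed level of 20 macrophage genes was 6947 to 6990 CPM in QS, 16694 to 17076 in ACT, 182 to 187 in KO, with 4120 to 4170 in LAC. The sum of 15 hepatocyte genes was 2102 to 2131 CPM in QS, 138 to 151 in ACT, 501 to 554 in KO, with 260.03 to 269 in LAC, with albumin (Alb) at 157 CPM in KO and 0.601 in LAC. The macrophage marker Adgre1 averaged 322 CPM in QS, 364 in ACT, 2.84 in KO, with 67.4 in LAC, the Kupffer cell marker Clec4f 359.8, 3.72, 3.62 and 0.784 in the same order, and the hepatocyte gene Serpina3k was listed at 0 in 2 of 3 LAC libraries. The 18 stellate genes summed to 6168 to 6389 CPM in QS, 15351 to 15393 in ACT, 4758 to 5085 in KO, with 8241 to 8637 in LAC. The 41 endothelial genes summed to 27235 to 27908 CPM in QS, 1783 to 1831 in ACT, 14609 to 15670 in KO, with 8582 to 8834 in LAC. They thus held more of the RNA than the stellate list in QS, KO and LAC, though lists of different length and genes cannot be read as cell numbers. In bulk RNA, fewer cells of a type and less RNA per cell cannot be told apart. The part of the other cell types in the results was not tested.

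**Figure D1:**
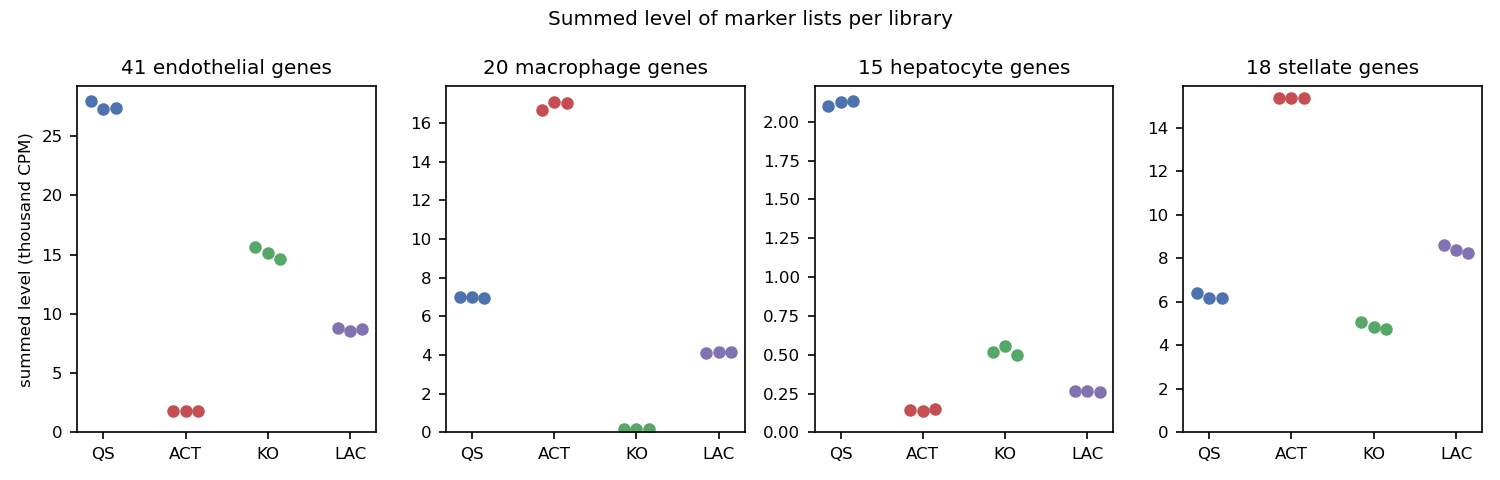
Summed CPM of 4 gene lists (vertical axes, in 1000 CPM, from 0, each with its own scale) in each library of the groups QS, ACT, KO and LAC; each point is a library. The 41 endothelial genes ran in the order QS, KO, LAC, ACT, while the 20 macrophage genes were lowest in KO, at 182 to 187 CPM, and highest in ACT.

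In the freshly isolated cells all 41 genes were detected. Per kilobase of the longest annotated coding transcript, the highest level in QS was that of the water channel Aqp1 (626 CPM per kb), followed by the membrane trafficking gene Ehd3 (549), VE-cadherin (Cdh5, 548) and Clec4g (501). Ehd3 and Cdh5 differed by less than the spread of their libraries. The IgG receptor Fcgr2b reached 400.3 CPM per kb, Dnase1l3, a secreted nuclease, 367 and endoglin (Eng) 353. At the other end, Vwf had 1.80 CPM per kb in QS, the lowest of the 41.

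In activated compared with freshly isolated cells, 40 of the 41 genes were lower (limma on log2(CPM + 1), Benjamini-Hochberg adjusted p under 0.05), 39 of them by at least 2-fold, and 1, thrombomodulin (Thbd), was higher. Of all 12081 genes, 35.5% were called lower and 38% higher, and 14.9% were lower by at least 2-fold. The median log2 change of the 41 genes was -4.39, against 0.03 over all genes. The median gene kept 3.49% of its QS level. The 7 named sinusoidal genes had a median of -5.57 and the 29 general genes one of -4.38, a description without a test.

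The 3 deepest falls among the 41 were of sinusoidal genes, while other sinusoidal genes such as Maf (-2.52), Stab1 and Fcgr2b fell less than the median general gene. Clec4g, a C-type lectin of sinusoidal cells on chromosome 8 (3707064 to 3720651, GENCODE M21), was 729, 723 and 712 CPM in QS and 0.354, 0.953 and 0.729 in ACT. The ACT values stood for 5, 11 and 10 estimated reads, so the level remaining there, 0.0941% of QS, is imprecise. The log2 change was -8.77 ± 0.11 (SE, adjusted p = 6.71e-17). Dnase1l3 (chromosome 14, 7964533 to 7994573) was 1706, 1742 and 1784 CPM in QS and 4.24, 2.95 and 2.51 in ACT. It fell by 8.71 ± 0.14 on the log2 scale (SE, adjusted p = 6.96e-16). Gpr182, an atypical chemokine receptor (chromosome 10, 127747276 to 127751732), was 549.5, 567 and 525 CPM in QS and 1.70, 1.21 and 1.09 in ACT, a change of -7.88 ± 0.09 (SE, adjusted p = 2.68e-17). For these 3 genes every ACT library lay far below every QS library.

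The stabilins and Lyve1 fell less than these 3 genes. Stab2, stabilin-2, which takes up hyaluronan (chromosome 10, 86841198 to 87008025), went from 2012, 1907 and 1902 CPM in QS to 39.6, 39.8 and 40.3 in ACT (log2 change -5.57 ± 0.06 SE, adjusted p = 1.54e-17). Its relative Stab1, which macrophages also express, was 1404, 1218 and 1225 CPM in QS and 203, 197 and 215 in ACT (-2.64 ± 0.08 SE, adjusted p = 1.36e-12). Lyve1, another hyaluronan receptor (chromosome 7, 110850607 to 110863239), was 309, 301 and 299 CPM in QS and 8.06, 9.79 and 8.89 in ACT (-4.94 ± 0.06 SE, adjusted p = 3.21e-17). In all 3 every QS library exceeded every ACT library. Fcgr2b, which clears immune complexes in sinusoidal cells and is also expressed by macrophages and B cells (chromosome 1, 170958617 to 170976547), was 1397, 1439 and 1421 CPM in QS and 125, 132 and 122 in ACT. Its fall of 3.48 ± 0.03 on the log2 scale (SE, adjusted p = 6.77e-18) was the smallest among the 7. Oit3 (chromosome 10, 59422958 to 59441778) was 649, 656 and 661 CPM in QS and 37.3, 36.5 and 39.4 in ACT (-4.08 ± 0.04 SE, adjusted p = 6.77e-18). Of 20 macrophage genes 11 were higher and 6 lower in ACT (all genes 38% higher and 35.5% lower).

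The general genes fell as a body with 3 that stood out. Platelet endothelial cell adhesion molecule (Pecam1) was 887, 894 and 889.7 CPM in QS and 31.1, 31.2 and 30.8 in ACT (log2 change -4.80 ± 0.03 SE, adjusted p = 2.58e-19). Cdh5 was 2267, 2149 and 2152 CPM in QS and 68.0, 77.0 and 67.6 in ACT. All 18 surface genes and all 5 transcription factors fell, from -6.67 for Clec14a to -0.86 for the angiogenesis regulator Ecscr among the former and from -5.13 for Erg to -3.60 for Tal1 among the latter. Of 6 signalling genes 5 fell, from -5.38 for Rasip1, a regulator of small GTPases, to -3.05 for the adrenomedullin receptor Calcrl. Emcn, a sialomucin of capillaries and veins, was 70.5, 79.0 and 75.3 CPM in QS and 26.3, 23.4 and 24.7 in ACT, which is 33.1% of QS. Ecscr was 48.9, 51.0 and 50.01 CPM in QS and 28.6, 27.4 and 25.5 in ACT, or 54.3%. Thbd, which turns thrombin into an anticoagulant, was 279.5, 273 and 270.2 CPM in QS and 399, 380.5 and 387 in ACT (0.50 ± 0.04 SE, adjusted p = 4.49e-08). It was the only one of the 41 called higher in ACT (38% of all genes), and every ACT library lay above every QS library.

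**Figure D2:**
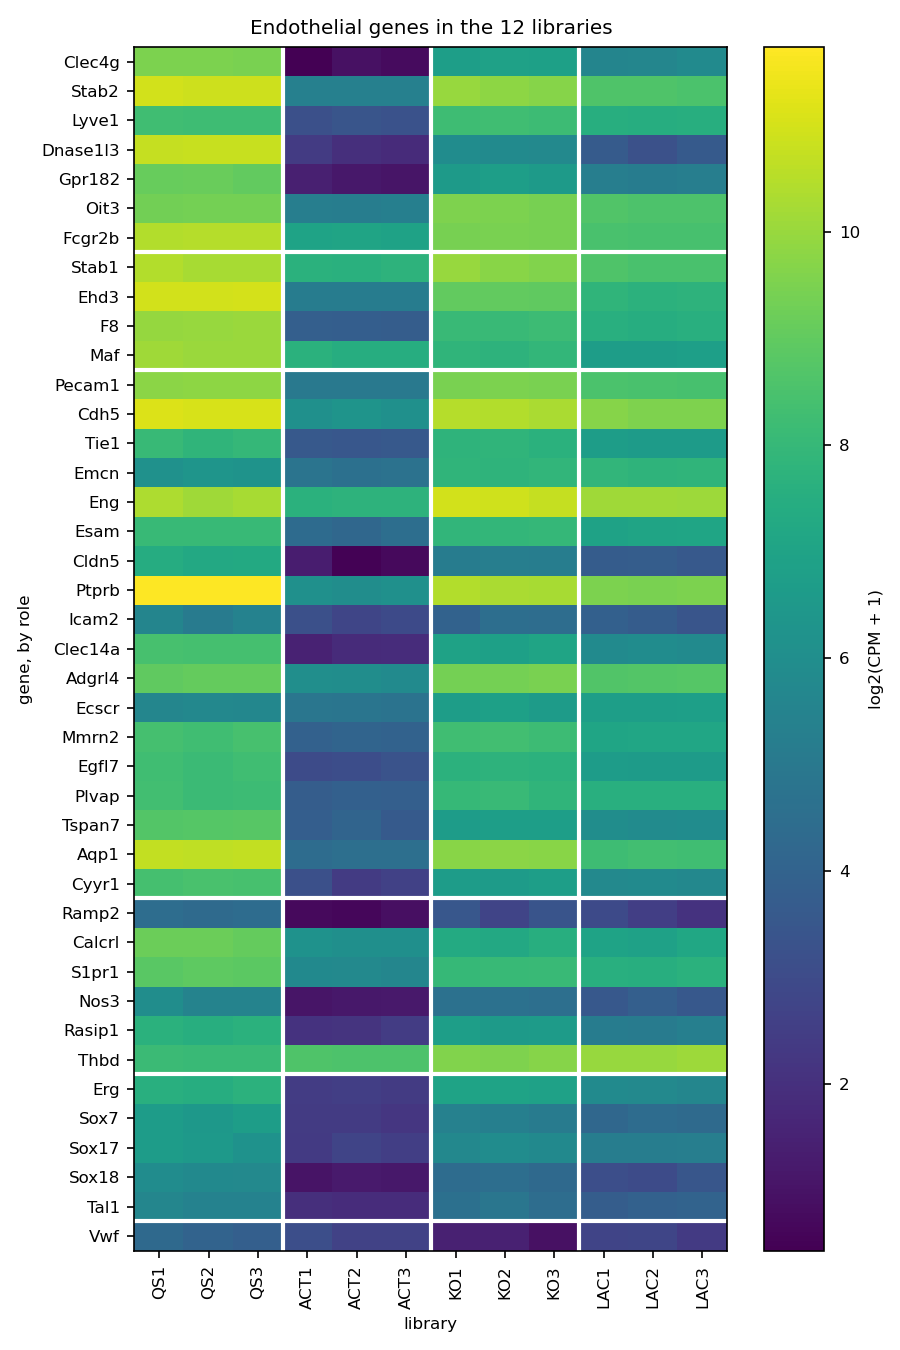
Level of each of the 41 genes, as log2(CPM + 1) by colour, with genes down the side grouped by role (7 named sinusoidal, 4 other sinusoidal, general surface, general signalling, transcription factors, Vwf) and the 12 libraries across. Most genes are bright in QS, dark in ACT and between these in KO and LAC, Thbd is brighter in KO and LAC, and Vwf is darkest in KO.

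Deletion of Hk2 compared with activated cells gave the opposite picture, and the contrast shares the ACT libraries with the one above. In KO 40 of the 41 genes were higher than in ACT, 39 by at least 2-fold, and 1, Vwf, was lower, also by 2-fold. Of all genes 36% were called higher and 26.3% lower, with 9.17% higher and 9.78% lower by at least 2-fold. The median log2 change of the 41 genes was 3.79, against 0.07 over all genes. Macrophage, hepatocyte and stellate markers differed between these groups as well, as given above, and their part in the change was not tested.

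Clec4g was 109, 118 and 115 CPM in KO, 168 times its mean in ACT (log2 change 6.11 ± 0.11 SE, adjusted p = 5.29e-15). Gpr182 was 96.1, 109 and 96.4 CPM in KO (5.45 ± 0.09 SE, adjusted p = 2.01e-15). Dnase1l3 was 60.4, 57.2 and 53.3 CPM in KO (3.79 ± 0.14 SE, adjusted p = 1.06e-11). All 3 were far above ACT and far below QS. Stab2 was 1025, 893 and 832 CPM in KO (4.48 ± 0.06 SE, adjusted p = 2.42e-16), and Stab1 1022, 860.3 and 777 (2.10 ± 0.08 SE, adjusted p = 3.17e-11). Lyve1 reached 300.3, 307 and 288 CPM in KO (4.92 ± 0.06 SE, adjusted p = 5.22e-17), values that overlapped those of QS. Oit3 reached 741, 729 and 685 CPM in KO, above all QS libraries, and Fcgr2b 682, 699 and 677, below them. Maf, a transcription factor of sinusoidal cells and macrophages, was 202, 177 and 179 CPM in ACT and 229.8, 210.0 and 243 in KO. Its rise of 0.29 ± 0.06 (log2, SE, adjusted p = 0.000758) was the smallest of the 40.

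Of the other sinusoidal genes, Ehd3 was 1976, 2005 and 2044 CPM in QS, 34.9, 34.9 and 34.8 in ACT and 527, 522 and 503 in KO, so that KO exceeded ACT by 3.85 ± 0.04 on the log2 scale (SE, adjusted p = 1.12e-17). F8, which codes for coagulation factor VIII, was 993, 1020.5 and 1035 CPM in QS, 13.4, 13.0 and 12.5 in ACT and 275, 272 and 290.2 in KO (4.33 ± 0.04 SE, adjusted p = 1.1e-17 for KO against ACT). In KO both lay above every ACT library and below every QS library. Both were lower in LAC than in KO, at 229.9, 209.7 and 212 CPM for Ehd3 and 191, 177 and 187 for F8.

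Among the general genes, Pecam1 was 709.9, 727 and 704 CPM in KO (4.48 ± 0.03 SE, adjusted p = 6.37e-19 against ACT), and Cdh5 1434, 1386 and 1248 (4.24 ± 0.06 SE, adjusted p = 4.7e-16). Both were far above ACT and below every QS library. The ETS factor Erg, which maintains endothelial identity, went from 4.39, 4.85 and 4.20 CPM in ACT to 125, 126 and 118 in KO (4.502 ± 0.08 SE, adjusted p = 2.71e-15). The SOX factors that specify arteries and other vessels rose likewise: Sox7 from 4.24, 4.33 and 3.64 to 41.5, 39.4 and 34.3 CPM, Sox17 from 4.08, 5.74 and 4.74 to 52.1, 60.1 and 55.1, and Sox18 from 1.06, 1.39 and 1.24 to 20.4, 21.8 and 18.7. Endothelial nitric oxide synthase (Nos3), which makes the vasodilator nitric oxide, rose from 1.12, 1.21 and 1.33 CPM in ACT to 24.4, 24.1 and 22.5 in KO. The sphingosine-1-phosphate receptor S1pr1 went from 55.1, 52.4 and 48.4 CPM to 259.8, 266 and 269, and Calcrl from 72.8, 66.4 and 65.7 to 160.4, 152 and 183. Its partner Ramp2 was 0.632, 0.540 and 0.863 CPM in ACT, or 8.9, 6.2 and 11.8 estimated reads, and 10.5, 5.66 and 9.29 in KO. Among surface genes Aqp1 and Clec14a had the largest rises on the log2(CPM + 1) scale, 5.23 and 5.20, and Clec14a the largest ratio of means, 51.8-fold. Aqp1 went from 20.5, 22.5 and 22.9 CPM in ACT to 859, 869 and 852 in KO (5.23 ± 0.04 SE, adjusted p = 1.16e-18). The smallest rise was that of the adhesion molecule Icam2, from 8.16, 5.98 and 6.79 to 14.7, 22.0 and 21.5 (1.34 ± 0.18 SE, adjusted p = 1.45e-05). The phosphatase Ptprb, which restrains the Tek receptor, rose from 68.7, 61.5 and 68.9 CPM to 1391, 1256 and 1236. Plvap, which forms the diaphragms of fenestrae and caveolae, went from 12.6, 13.8 and 13.3 CPM to 258, 274 and 229.6.

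The levels in KO were uneven when set against the freshly isolated cells, a contrast that shares its libraries with the others. Against QS, 34 of the 41 genes were lower in KO (35.7% of all genes), 20 by at least 2-fold (13.4% of all genes), and 6 were higher (37.4% of all genes), 3 by at least 2-fold (14.2%). The share of lower genes among the 41 was above that of all genes, and the share of higher genes below it. The median gene stood at 52.1% of QS. Below 25% were 7 genes, between 25% and 50% 13, between 50% and 100% 15, and above 100% 6.

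Lowest against QS were Dnase1l3 at 3.27% (log2 change -4.91 ± 0.14 SE, adjusted p = 4.66e-13), Vwf at 9.42%, Clec4g at 15.8% (-2.65 ± 0.11 SE, adjusted p = 3.35e-11), Gpr182 at 18.3% (-2.44 ± 0.09 SE, adjusted p = 8.74e-12) and Maf at 21.3%. The tight junction gene Cldn5 stood at 22.6% and Tspan7, a tetraspanin, at 24.7%. Lyve1 stood at 98.4% of QS and was not called (-0.02 ± 0.06 SE, adjusted p = 0.718), and its sign changed with an equal total per library (0.09) and without KO replicate 3 (0.0019). Higher than in QS were Oit3 at 110% (0.13 ± 0.04 SE, adjusted p = 0.0086), the adhesion receptor Adgrl4 at 127%, the TGF-beta co-receptor Eng at 156%, Ecscr at 212%, Thbd at 286% and Emcn at 303% (1.59 ± 0.06 SE, adjusted p = 5.44e-12). Eng was 1286, 1127 and 1207 CPM in QS and 2011, 1909.5 and 1740.3 in KO, with no overlap. The call of Oit3 was lost with medians of ratios (adjusted p = 0.0956), and its sign turned with quantile normalization (-0.02, adjusted p = 0.713).

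Esam (-0.15, adjusted p = 0.0381), Mmrn2 (-0.14, adjusted p = 0.0258), Tie1 (-0.19, adjusted p = 0.00977) and Plvap (-0.21, adjusted p = 0.00957) stood between 86.4% and 90.5% of QS and were called lower by limma. With an equal total per library their changes were -0.04, -0.03, -0.08 and -0.10 and none was called. Leaving out QS replicate 1 also ended each of these 4 calls, with adjusted p = 0.0768, 0.0769, 0.0523 and 0.0509 in that order, and leaving out other single QS or KO libraries ended those of Esam, Mmrn2 and Plvap.

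**Figure D3:**
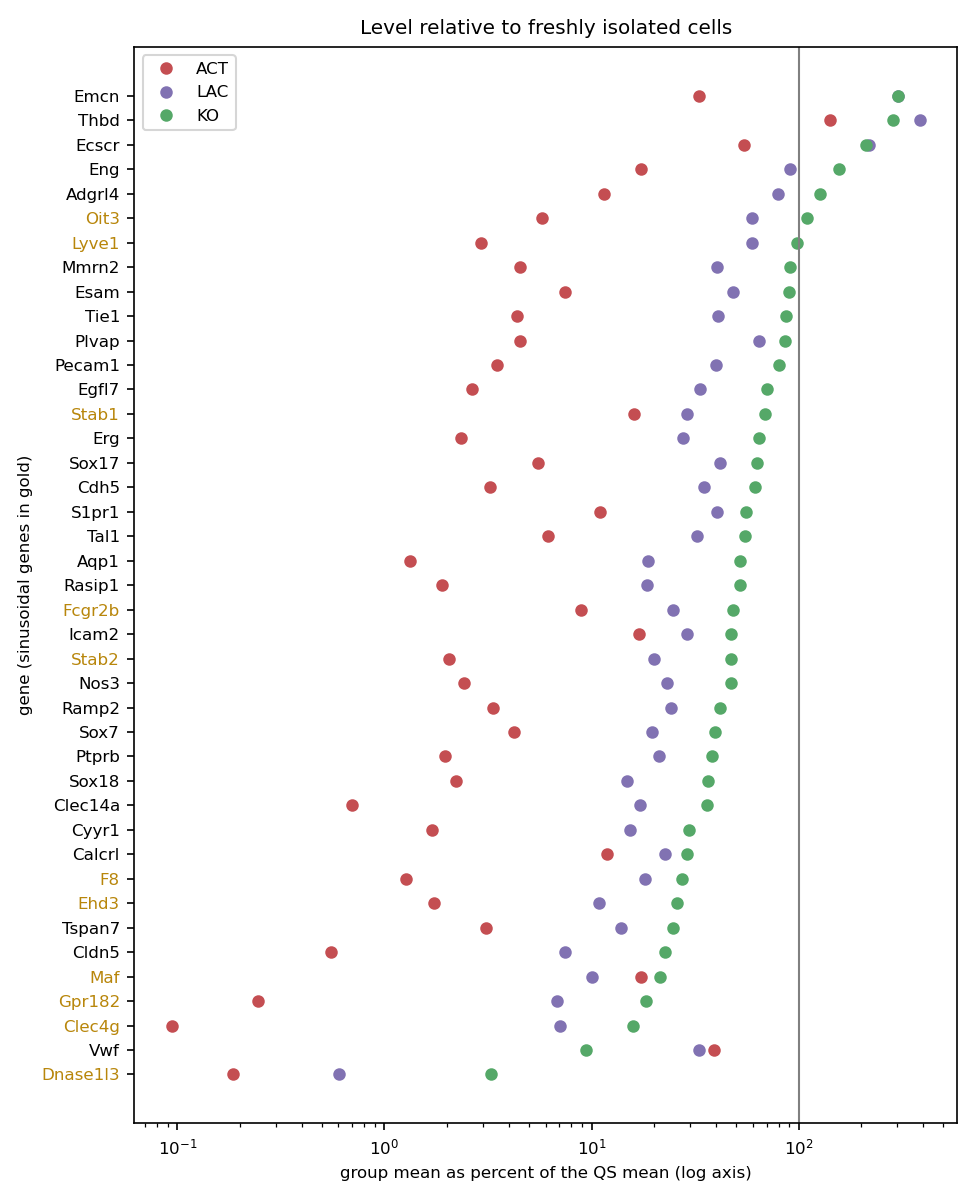
Group mean of each of the 41 genes in ACT, LAC and KO as a percent of its mean in QS (horizontal log axis; vertical line at 100%), ordered by KO; names of the 11 sinusoidal genes are in gold. KO spans from 3.27% for Dnase1l3 to 303% for Emcn, and for most genes LAC lies between ACT and KO.

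Lactate given to Hk2-deleted cells was accompanied by lower levels of most of the genes. In LAC compared with KO, 37 of the 41 were lower (21% of all genes), 16 by at least 2-fold (2.19% of all genes), and 2 were higher, Vwf and Thbd (20% of all genes), of which Vwf by at least 2-fold (5.12% of all genes). The median log2 change was -0.93, against -0.02 over all genes, and the median gene stood at 52.0% of KO. In the same libraries the macrophage list was higher in LAC than in KO and the hepatocyte list lower, as given above, and whether they bear on the change was not tested.

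Dnase1l3 fell most, from 60.4, 57.2 and 53.3 CPM in KO to 11.8, 8.34 and 11.4 in LAC, or 18.5% (log2 change -2.34 ± 0.14 SE, adjusted p = 8.22e-09). Clec4g was 47.4, 48.4 and 56.8 CPM in LAC (-1.15 ± 0.11 SE, adjusted p = 1.33e-06), Gpr182 38.1, 35.3 and 38.2 (-1.41 ± 0.09 SE, adjusted p = 1.89e-08) and Stab2 399, 389 and 373 (-1.24 ± 0.06 SE, adjusted p = 9.34e-10). In all of these the LAC and KO libraries did not overlap. Smaller falls were those of Lyve1, to 182, 176 and 184 CPM (-0.72 ± 0.06 SE, adjusted p = 2.03e-07), of Oit3, to 402, 382 and 384 (-0.88 ± 0.04 SE, adjusted p = 5.3e-10), and of Fcgr2b, to 361, 347 and 348 (-0.96 ± 0.03 SE, adjusted p = 3.7e-11). Stab1 was 391, 360.3 and 359 CPM in LAC (-1.25 ± 0.08 SE, adjusted p = 3.54e-08).

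Of the general genes, Pecam1 was 367, 359 and 346 CPM in LAC (-0.996 ± 0.03 SE, adjusted p = 1.1e-11) and Cdh5 815, 739.8 and 751 (-0.82 ± 0.06 SE, adjusted p = 9.11e-08). Erg fell to 56.8, 53.7 and 48.0 CPM (-1.21 ± 0.08 SE, adjusted p = 1.7e-08), and Sox7, Sox17 and Sox18 fell to 17.6, 20.6 and 19.0, to 36.0, 35.9 and 38.0 and to 7.81, 7.07 and 9.90 CPM. Nos3 fell to 10.8, 13.3 and 10.7 CPM and S1pr1 to 186, 185.5 and 200.1. Calcrl, at 125, 120.1 and 145 CPM (-0.34 ± 0.08 SE, adjusted p = 0.00336), and Plvap, at 190.5, 188 and 189 (-0.42 ± 0.06 SE, adjusted p = 0.000159), fell least of those called. Ramp2, at 6.79, 4.75 and 3.22 CPM, overlapped KO, and its call (-0.69 ± 0.24 SE, adjusted p = 0.0318) was lost with a pseudocount of 0.1 (adjusted p = 0.0548), with only KO and LAC in the fit (0.0666) and without KO replicate 1, KO replicate 3, LAC replicate 2 or LAC replicate 3 (0.0697 to 0.147).

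Emcn and Ecscr were not called between LAC and KO. Emcn was 229.5, 219 and 233 CPM in KO and 233, 219 and 228 in LAC (log2 change -0.00 ± 0.06 SE, adjusted p = 0.98), and Ecscr was 104, 114 and 99.4 CPM in KO and 109, 109 and 110.3 in LAC (0.05 ± 0.06 SE, adjusted p = 0.552). The libraries of both groups overlapped for each, and a missed threshold does not show that the levels were equal. Thbd went the other way from most, from 779.5, 745.5 and 826.5 CPM in KO to 1034, 1030 and 1096 in LAC (0.43 ± 0.04 SE, adjusted p = 1.26e-06). It was highest in LAC in all 3 libraries and stood at 384% of its QS mean.

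LAC remained far from ACT. Against ACT, whose libraries also served for KO, 39 genes were higher in LAC (27.8% of all genes), 36 by at least 2-fold (6.46%), with a median log2 change of 2.76. Clec4g was 74.9 times its ACT mean in LAC. One gene was lower, Maf, at 106, 106 and 111 CPM (-0.78 ± 0.06 SE, adjusted p = 8.12e-08), the only one of the 41 with its lowest level in LAC (21.7% of all genes were called lower). Vwf was not called (-0.20 ± 0.21 SE, adjusted p = 0.478). Against QS, 37 genes were lower in LAC (36.2% of all genes), 33 by at least 2-fold (13.8%), and Emcn, Ecscr and Thbd were higher (37.4%). Eng in LAC, at 1132, 1102 and 1071 CPM, was near its QS level (-0.13, adjusted p = 0.0505) and was called lower in 9 alternatives, among them with only LAC and QS in the fit (adjusted p = 0.0341).

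The order of the group means was QS, KO, LAC, ACT, from high to low, in 33 of the 41 genes. How many of all genes ran in this order was not counted. Among the 33, Lyve1 was not called between KO and QS. The calls of Esam, Mmrn2, Tie1 and Plvap between KO and QS were lost with an equal total per library. For Oit3, Adgrl4 and Eng it was KO, QS, LAC, ACT. Maf ran QS, KO, ACT, LAC. Emcn ran KO, LAC, QS, ACT and Ecscr LAC, KO, QS, ACT, with KO and LAC not distinguished for either. Thbd ran LAC, KO, ACT, QS.

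Vwf, a clotting protein known as a marker of large vessels and of platelets and their precursors, had an order of its own (chromosome 6, 125546774 to 125686679). It was 19.0, 15.4 and 13.5 CPM in QS, 8.004, 5.29 and 5.41 in ACT, 1.80, 1.78 and 0.926 in KO and 5.66, 6.02 and 4.16 in LAC. QS was highest and KO lowest with no overlap, while ACT and LAC overlapped. The KO values stood for 21.4, 10.8 and 6.5 estimated reads. Against ACT it was lower in KO (-1.53 ± 0.21 SE, adjusted p = 2.32e-05), and in LAC it was higher than in KO (1.34 ± 0.21 SE, adjusted p = 0.000192). It was the only one of the 41 with its lowest level in KO. With a pseudocount of 5 neither change reached 2-fold. Of 9 platelet and megakaryocyte genes 4 were listed, and the integrin gene Itga2b averaged 9.33 CPM in QS, 0.861 (ACT), 2.49 (KO) and 3.91 (LAC), and platelet factor 4 (Pf4), which macrophages can also express, 5.18, 36.2, 3.41 and 5.04. The other 2 listed went differently: the integrin gene Itgb3 averaged 169, 42.0, 144 and 157 CPM in that order and was higher in KO than in ACT (1.75 ± 0.06 SE, adjusted p = 2.67e-12), and Ppbp averaged 0.725, 0.942, 2.15 and 3.91.

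**Figure D4:**
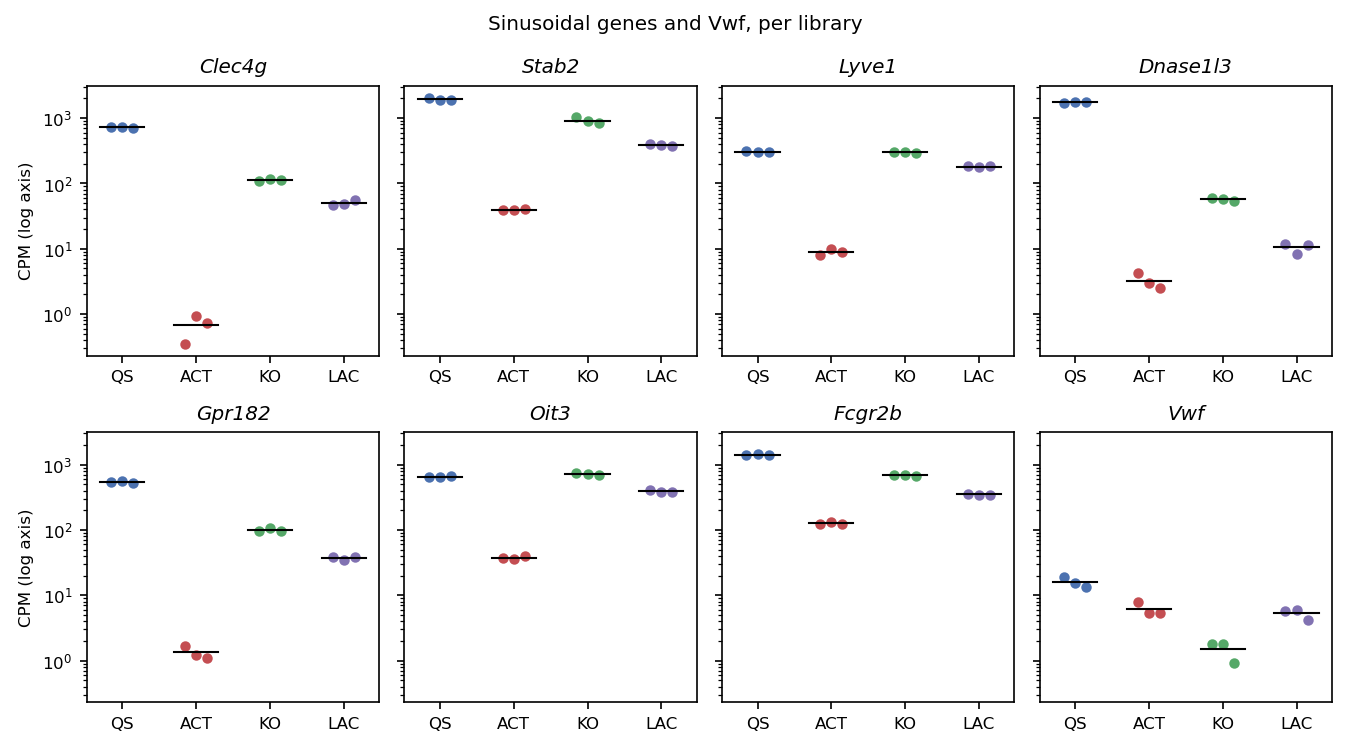
Level in CPM (vertical log axes, the same for all panels) of the 7 named sinusoidal genes and Vwf in each library of QS, ACT, KO and LAC; points are libraries and bars are group means. KO libraries lie between QS and ACT for Clec4g, Stab2, Dnase1l3, Gpr182 and Fcgr2b, at the QS level for Lyve1, above it for Oit3, and below ACT for Vwf.

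Sinusoidal and general genes did not keep the same proportion. Of the summed CPM of the 7 sinusoidal and 29 general genes, the 7 held 32.8% to 33.4% in QS, 15.8% to 16.4% in ACT, 21.5% to 22.1% in KO and 17.8% to 18.2% in LAC. The 4 groups did not overlap in this share, but its order among the cultured groups rested on Thbd, which made up 33.6% to 34.6% of the general sum in ACT and 1.83% to 1.87% in QS. Without Thbd, an alternative chosen after seeing the data, the share was 33.2% to 33.9% in QS, 22.3% to 22.9% in ACT, 22.9% to 23.5% in KO, with 20.7% to 21.0% in LAC. QS then still stood apart from the 3 cultured groups, and LAC rather than ACT was lowest. The general sum itself was 14602 to 15045 CPM in QS and 10050.0 to 10602 in KO, and the sinusoidal sum 7303 to 7351 and 2746 to 3013. Single genes differed in the same measure. Relative to Pecam1 per kilobase, Clec4g was 194% ± 2.7 (SD, n = 3) in QS and 38.2% ± 1.2 in KO, and Dnase1l3 142% ± 3.0 and 5.78% ± 0.35. Lyve1 moved the other way, from 40.5% ± 0.87 in QS to 49.7% ± 0.93 in KO, and Thbd rose from 28.5% ± 0.57 to 102% ± 6.9. For each of these 4 ratios the libraries of QS and KO did not overlap, which in an exact two-sided permutation test of 3 libraries against 3 gives p = 0.1, the smallest such a test allows (adjusted over the 4, 0.1). The 4 were chosen with their values known, so the test adds nothing to the values.

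Other endothelial genes, 79 listed of 89 on 5 lists, showed how far the pattern reached. In ACT against QS 70 of the 79 were lower and 8 higher, in KO against ACT 67 were higher and 8 lower, in LAC against KO 56 were lower and 9 higher, and in KO against QS 60 were lower and 9 higher. The shares of all genes, in the same order, were 35.5% lower and 38% higher, 36% higher and 26.3% lower, 21% lower and 20% higher, and 35.7% lower and 37.4% higher, so that in each comparison the listed genes exceeded the share of all genes in the first direction named only. Their median log2 changes were -3.10, 1.78, -0.64 and -0.998. All 15 genes on the list of receptors, which also holds the ligands Dll4 and Bmp6, were lower in ACT than in QS and higher in KO than in ACT. Kdr, the main receptor for vascular endothelial growth factor, averaged 1983 CPM in QS, 27.4 in ACT, 548 in KO, with 246 in LAC (-6.13 in ACT against QS, 4.27 in KO against ACT and -1.15 in LAC against KO, adjusted p = 4.28e-19, 1.97e-17 and 1.13e-10). The endothelin receptor Ednrb was 1248 CPM in QS and 161 in KO, and the angiopoietin receptor Tek 392 and 80.7. Among factors, Gata4, which specifies sinusoidal endothelium, averaged 35.8 CPM in ACT, 199 in KO and 129 in LAC. The flow-induced factor Klf2 averaged 118 CPM in QS, 16.3 in ACT, 19.8 in KO, with 9.34 in LAC, which was below ACT (-0.74, adjusted p = 3.87e-05).

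Of 17 further sinusoidal genes, 12 were higher and 3 lower in KO than in ACT (all genes 36% higher and 26.3% lower). Cd300lg was 329 CPM in QS, 1.11 in ACT, 11.04 in KO, with 2.13 in LAC, a course near that of Dnase1l3. The cytokine Bmp2 was 555 CPM in QS, 19.5 in ACT, 270.5 in KO, with 101 in LAC, and Bmp6, which with Bmp2 controls hepcidin in the liver, was 10.9 in ACT, 239 in KO and 118 in LAC. The mannose receptor Mrc1, shared with macrophages, was 1538 CPM in QS, 387 in KO and 187.5 in LAC. Of 14 genes of other vessel types, 10 were higher and 4 lower in KO than in ACT (all genes 36% higher and 26.3% lower). The tip-cell genes Angpt2 (16.3 CPM in ACT, 376 in KO, 251.95 in LAC), Apln (22.8, 309 and 198) and Esm1 (41.9, 311 and 280.1) rose in KO against ACT by 4.44, 3.71 and 2.86 on the log2 scale (adjusted p = 2.03e-17, 2.05e-14 and 2.16e-14). Against these, Cd200 was 93.8 CPM in ACT and 24.98 in KO (-1.87, adjusted p = 1.52e-09) and the caveolin gene Cav1 195 and 64.0 (-1.59, adjusted p = 8.24e-12). The vein genes Ackr1 and Sele were 45.2 and 31.7 CPM in QS and 2.60 and 4.61 in KO. Of 6 lymphatic genes 4 were listed, of which 3 were higher and 1 lower in KO than in ACT (all genes 36% higher and 26.3% lower). Among the higher ones, Flt4 is also on the lists of receptors and of further sinusoidal genes, and Reln on the stellate list. The lymphatic factor Prox1 was 12.5 CPM in the QS mean, with 1.24 for ACT, 5.42 for KO and 4.88 for LAC. Pdpn, the lymphatic gene that was lower in KO than in ACT (-1.59), averaged 2.58, 66.6, 21.5 and 41.8 CPM in the same order.

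**Figure D5:**
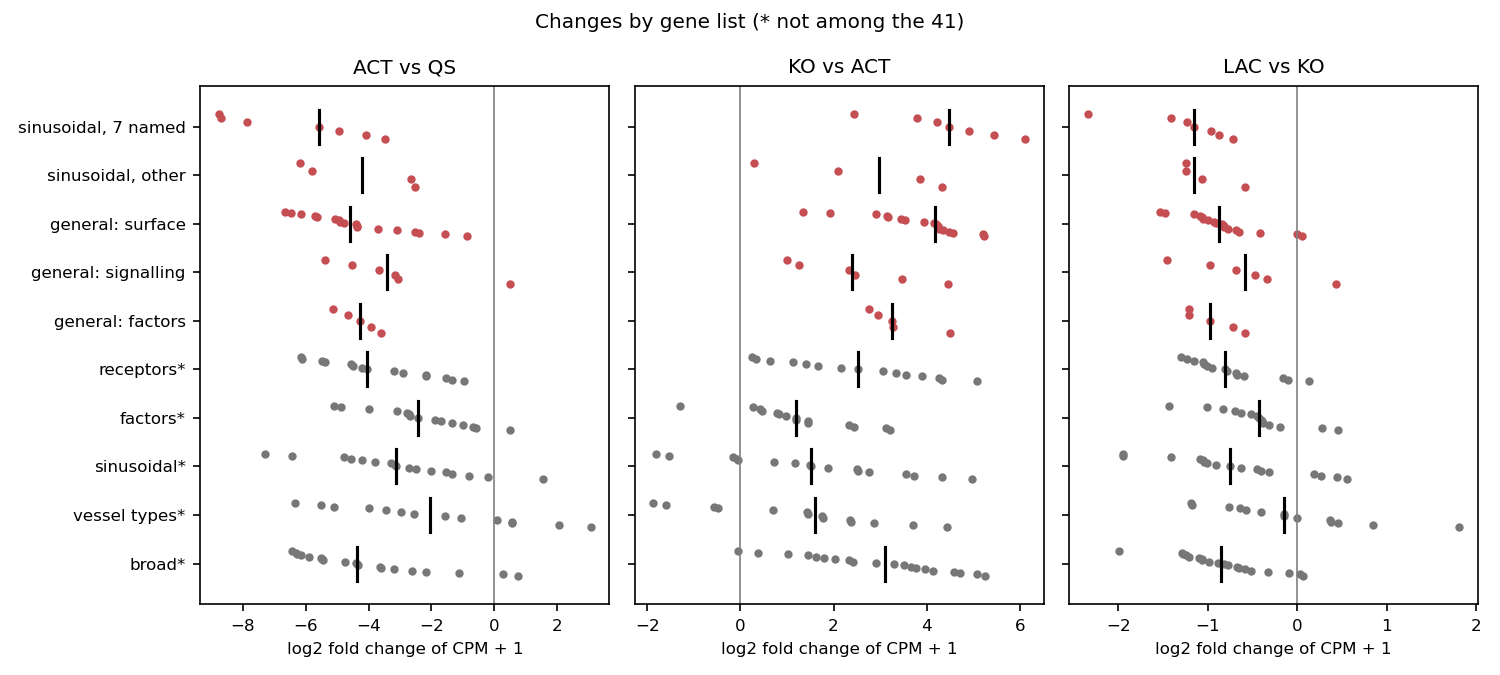
Log2 fold change of CPM + 1 (horizontal axes, each panel with its own scale) of each gene in ACT against QS, KO against ACT and LAC against KO, by list; each point is a gene, vertical bars are medians, red marks the endothelial genes chosen here by role (without Vwf), and grey with an asterisk the other endothelial lists. In the first 2 panels the 7 named sinusoidal genes have medians of -5.57 and 4.48, and the 4 other chosen sinusoidal genes -4.22 and 2.98. Every grey list but that of receptors has genes on both sides of 0 in every panel.

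The profile of the 7 sinusoidal genes, as the mean of their standardized log2 levels over the 12 libraries, had its nearest genes outside the 41 in Gimap6 (Pearson r = 0.9995), Exoc3l2 (0.9992), Flt4 (0.9991), She (0.9991), Sh3bp5 (0.999), Bace2 (0.9989), Arhgap31 (0.9987), Ets1 (0.9987), Npr1 (0.9985) and Arap3 (0.9984). Gimap6, Exoc3l2, Flt4, She and Ets1 were also on the other endothelial lists. Nearest to Vwf were Epb41l3 (0.9806), Zfp516 (0.9715), Slamf7 (0.9673), Csf3r (0.967) and Tmem86a (0.9666). Epb41l3 averaged 48.9 CPM in QS, 11.3 in ACT and 0.675 in KO, and Csf3r 48.2, 14.1 and 0.0408. The 12 libraries fall into 4 groups and share group means, so these values describe likeness and carry no p.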

How the data were processed

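The deposited table holds a signal per gene and library, the authors' CPM (read counts scaled to library size) with a further scale per library (column totals of 959233 to 1047042), for 12081 genes. FastQC 0.11.8, cutadapt 1.18, kallisto 0.44.0 and edgeR 3.8 with the build mm10 are named, without roles, per the submitters' processing notes, and libraries were made with a stranded mRNA kit per the labels' protocols. The sample titles gave each library's group and number. The 41 genes and all lists were chosen with earlier results of these data known.

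Only 19.1% to 25.7% of values lay within 0.01 of a whole number of reads, so reads were not recovered and no count test was run; depth was estimated from the value of a single read. Replicate libraries differed beyond sampling noise (chi-square per gene 2.27 to 4.86) and all 12 were kept. Log2(CPM + 1) was fitted with limma 3.58.1 in R 4.3.3, with 4 group means over all 12 libraries (8 residual degrees of freedom) and moderation along the intensity trend. Levels are relative to other genes, so total RNA per cell is not measured. P-values were adjusted over all 12081 genes by Benjamini-Hochberg in each of 6 comparisons, and a gene was called under 0.05. The filter of 1 CPM in 3 libraries removed no gene. A log2 fold change on this scale understates the change of low genes.

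Named with the value in every library were the 7 sinusoidal genes and Vwf of the choice of genes and 13 further genes (Pecam1, Cdh5, Stab1, Erg, Sox7, Sox17, Sox18, Maf, Nos3, S1pr1, Calcrl, Ramp2 and Plvap). Genes that went against most in a comparison were also named so. Ehd3, F8, Aqp1, Icam2 and Ptprb were given in the same way outside this rule. From each other endothelial list, up to 4 called genes of at least 5 CPM with the largest change were eligible. Cav1 was named outside this rule. Like genes had at least 5 CPM in a group and were not predicted genes. Gene positions and lengths came from GENCODE M21. Alternatives were other pseudocounts (0.1, 0.5, 5), filters, scalings, groups in the fit, a stricter threshold (0.01), a replicate block and leaving out each library.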

Additional observations from a re-analysis of the deposited data

How the results depend on the processing

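Across 23 alternatives and 5658 log2 changes of the 41 genes, 5615 kept their direction and side of the threshold, 27 lost a call, 9 gained one and 7 changed sign. The sign changes were in 3 genes near 0: Emcn in LAC against KO (0.0446 with medians of ratios, 0.0056 without KO replicate 1, 0.0156 without KO replicate 3, 0.023 without LAC replicate 2, range -0.0276 to 0.023 over left-out libraries), Lyve1 in KO against QS (0.089 with an equal total per library, 0.0019 without KO replicate 3, range -0.0439 to 0.0019) and Oit3 in KO against QS (-0.0168 with quantile normalization). With a pseudocount of 5 the genes lower by 2-fold in KO against ACT went from 1 to 0 and those higher by 2-fold in LAC against KO from 1 to 0, both Vwf, because a larger pseudocount shrinks the change of a low gene. Leaving out single libraries gave 30 to 34 genes lower in KO against QS (18 to 20 by 2-fold), 36 to 37 lower in LAC against KO (16 to 19 by 2-fold), 37 to 38 lower in LAC against QS and 38 to 39 higher by 2-fold in KO against ACT. An equal total per library moved the median of all genes by 0.10 in KO against QS.

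The replicate numbers did not pair the libraries: same-numbered libraries had correlations of -0.035 to 0.102, 1 of 18 over 0.1, and the own number gave the best match in 15 of 36 combinations of a library and another group. With the replicate number as a block, 38 genes were lower in LAC against QS in place of 37, the added gene being Eng (adjusted p = 0.0494), and all other counts were as without it: 1 higher and 40 lower in ACT against QS, 40 and 1 in KO against ACT, 2 and 37 in LAC against KO, 39 and 1 in LAC against ACT, 6 and 34 in KO against QS. Few reads limit Clec4g and Cldn5 in ACT (from 5 estimated reads), Ramp2 in ACT (from 6.2) and Vwf in KO (from 6.5).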
